A study of Mus musculus with 6 samples.

Results

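The genes described here are 10 marker genes of mural cells, the pericytes and smooth muscle cells that wrap brain vessels. They were taken by gene symbol as known markers, and the rule did not use their measured values. The choice was made with earlier results of these data known. Pdgfrb, Rgs5, Notch3, Vtn, Higd1b, Kcnj8 and Abcc9 are markers of pericytes (some of them are also made by smooth muscle cells), and Acta2, Myh11 and Tagln are markers of smooth muscle cells. Each had 1 row in the deposited table of 16516 genes, and all 10 were among the 13151 genes that passed a filter on low counts. RNA-seq was performed on CD11b+ cells that were retained by magnetic-activated cell sorting (MACS) from the cortex of male wild-type C57BL/6J mice aged 8 to 10 weeks. The 4LPS mice received 4 daily intraperitoneal injections of lipopolysaccharide (LPS, from Escherichia coli 055:B5) at 500 µg/kg, and the NS mice received as many injections of normal saline. Cells were taken on day 7 counted from the start of the injections. Each group had 3 samples, and the RNA of each sample came from 2 mice.

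Pericytes lie within the basement membrane of capillaries, and smooth muscle cells ring arterioles and arteries. Both depend on signals from the endothelium: PDGF-BB from endothelial cells acts on the receptor Pdgfrb and recruits pericytes, and Notch ligands on endothelial cells act on Notch3. Smooth muscle cells contract through actin and myosin isoforms whose genes are switched on by the factor SRF and its partner myocardin. Mural cells do not carry CD11b, the integrin chain on which the cells were sorted. In bulk samples such as these, fewer mural cells in the sorted sample cannot be told apart from less mural RNA per cell. The number of mural cells in the cortex, and the share of them that passed the sort, were not measured.

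The total count was 15164123 to 15462396 in 4LPS samples and 15158342 to 15746606 in NS samples, so depth was nearly equal. The sample titles name CD11b+ cells, which the paper takes as microglia. In these samples 11 microglia markers summed to 48340 to 48900 CPM in 4LPS and 48810 to 51670 CPM in NS. CPM are counts scaled to a common library size after TMM normalization, which adjusts for differences in RNA composition. The 10 mural genes together summed to 150.4, 215.0 and 337.0 CPM in 4LPS replicates 1 to 3, against 296, 236 and 504 CPM in NS replicates 1 to 3. The mural genes held 0.0147% to 0.0321% of all counts in 4LPS samples and 0.0242% to 0.0516% in NS samples. Across all genes, NS replicate 3 stood apart from the other NS samples. The mean chi-square per gene was 24.5 and 21.4 between it and NS replicates 1 and 2, and 5.90 between those 2 samples. The fold changes of the mural genes are therefore also given without it.

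On a length-corrected scale, Acta2 and Rgs5 were the most abundant of the smooth muscle and the pericyte markers, and their start regions are shown for that reason. The sequences run from 250 bases before to 50 bases after the start site in RefSeq. The capitals mark matches to the CArG box, the motif that SRF binds. The motif was searched on both strands, with at most 1 C or G allowed in its core of 6 A or T letters. The Acta2 region is chr19:34255324-34255623 (minus strand) and the Rgs5 region is chr1:169655251-169655550 (plus strand), both in GRCm38.p6.
Acta2: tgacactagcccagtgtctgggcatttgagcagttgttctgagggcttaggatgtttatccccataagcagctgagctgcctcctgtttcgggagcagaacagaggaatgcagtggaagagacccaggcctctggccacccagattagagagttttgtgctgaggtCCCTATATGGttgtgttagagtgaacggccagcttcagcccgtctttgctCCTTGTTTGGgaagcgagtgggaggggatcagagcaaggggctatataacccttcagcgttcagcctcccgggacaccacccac
Rgs5: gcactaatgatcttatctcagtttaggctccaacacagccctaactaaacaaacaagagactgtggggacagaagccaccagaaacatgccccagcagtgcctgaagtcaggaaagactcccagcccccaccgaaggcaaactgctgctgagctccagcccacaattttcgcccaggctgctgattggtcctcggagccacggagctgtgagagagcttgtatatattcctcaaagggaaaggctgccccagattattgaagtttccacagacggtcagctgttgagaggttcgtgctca
The Acta2 region held 2 matches, CCCTATATGG beginning 84 bases and CCTTGTTTGG beginning 34 bases before the start site, while the Rgs5 region held none. Of all 32851 start regions in the table, 9.98% held such a match. Both Acta2 matches have 1 C or G in the core and would not count in a search that allows none. In that search 1.63% of start regions held a match. The table had start regions of 6 of the 10 genes (Rgs5, Kcnj8, Abcc9, Vtn, Acta2 and Notch3), and among those 6 only that of Acta2 held a match. Srf itself was at 49.4 to 55.5 CPM in 4LPS samples and 47.2 to 55.3 CPM in NS samples, and its edgeR estimate was 0.05 ± 0.08 (log2, standard error) with an adjusted p of 0.709. Myocd, which encodes myocardin, was at 0.476 to 1.085 CPM in 4LPS samples and 0.441 to 1.67 CPM in NS samples. Which cells of the samples made the Srf and Myocd transcripts was not tested, so these levels cannot be read as those of smooth muscle cells. In GRCm39, Acta2 lies on chromosome 19 from 34217737 to 34232990 with 9 exons, and Rgs5 on chromosome 1 from 169483036 to 169524887 with 5 exons. Vtn (78388717 to 78393156) and Higd1b (102726404 to 102735661) both lie on chromosome 11. Notch3 lies on chromosome 17 from 32339794 to 32385893, Myh11 on chromosome 16 from 14012399 to 14109236 and Tagln on chromosome 9 from 45840909 to 45847404.

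The first question was whether mural transcripts differed after repeated LPS. None of the 10 mural genes passed the test of 4LPS against NS at an adjusted p under 0.05 (edgeR's quasi-likelihood test with Benjamini-Hochberg adjustment over 13151 genes). Of all genes tested, 6.43% passed as lower and 9.95% as higher. All 10 log2 fold changes of 4LPS over NS were below 0, from -0.86 for Pdgfrb to -0.05 for Kcnj8. Their median was -0.61, and the median over all genes tested was -0.02, with 52.7% of genes below 0. At an unadjusted p under 0.05, Pdgfrb, Vtn and Tagln passed as lower, and 16.1% of all genes did so. DESeq2 called these same 3 genes lower (adjusted p = 0.0176, 0.0361 and 0.0136), with 7.54% of all genes called lower, while limma-voom and limma on log2 FPKM called none of the 10. For Tagln and Abcc9 every 4LPS sample was below every NS sample, and this held for 17.5% of all genes.

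**Figure D1:**
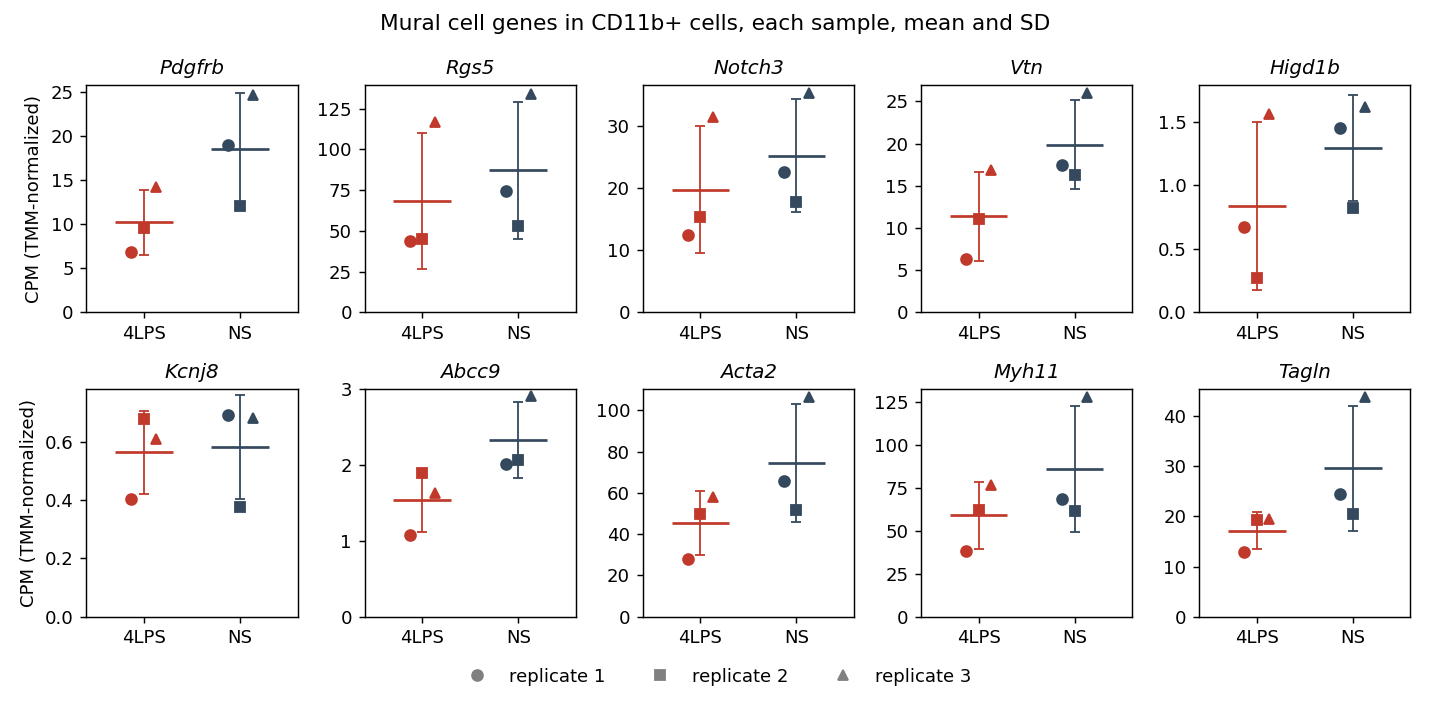
TMM-normalized CPM (y axis, linear, from 0) of the 10 mural genes in the 3 samples of 4LPS and the 3 of NS, with symbols for replicates, horizontal lines for means and bars for SD. 4LPS replicate 1 is the lowest point for 8 genes and NS replicate 3 the highest for 9, and the groups overlap for all but Tagln and Abcc9.

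Pdgfrb, the receptor for PDGF-BB, had 6.88, 9.58 and 14.2 CPM in 4LPS replicates 1 to 3, against 19.0, 12.1 and 24.7 CPM in NS replicates 1 to 3. Only 4LPS replicate 3 exceeded the lowest NS sample. The mean was 10.2 ± 3.72 CPM in 4LPS and 18.6 ± 6.31 CPM in NS (SD, n = 3 each), and the log2 ratio of 4LPS to NS was -0.86 ± 0.31 (standard error, 95% interval -1.59 to -0.14, edgeR adjusted p = 0.0992). Notch3, the Notch receptor of arterial smooth muscle cells and pericytes, had 12.5, 15.4 and 31.4 CPM in 4LPS samples, against 22.6, 17.8 and 35.3 CPM in NS samples. Here 4LPS replicate 3 lay above NS replicates 1 and 2, and the log2 ratio was -0.35 ± 0.37 (edgeR adjusted p = 0.535). It was -0.10 without 4LPS replicate 1, -0.84 without 4LPS replicate 3 and -0.03 without NS replicate 3. Rgs5, which accelerates the switching-off of G proteins and is a classical pericyte marker, showed the same order of samples. Its level was 43.6, 45.1 and 116 CPM in 4LPS samples, against 74.1, 52.8 and 134 CPM in NS samples. The third sample of either group stood above the other samples of that group, at 2.63 times their mean in 4LPS and 2.11 times in NS. The log2 ratio of Rgs5 was -0.35 with an interval from -1.39 to 0.69 (adjusted p = 0.623 from edgeR), and it was -0.96 without 4LPS replicate 3 and 0.11 without NS replicate 3.

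Vtn encodes vitronectin, an adhesive plasma and matrix protein that pericytes make in the brain. It had 6.34, 11.01 and 16.9 CPM in 4LPS samples, against 17.4, 16.3 and 26.0 CPM in NS samples. The groups overlapped by a narrow margin, at 4LPS replicate 3 and NS replicate 2. The log2 ratio was -0.80 ± 0.33 (interval -1.57 to -0.04, edgeR adjusted p = 0.134). Higd1b, a small membrane protein of the hypoxia-inducible domain family, had few counts. They were 10, 4 and 23 in 4LPS samples, against 23, 13 and 26 in NS samples. Summed by group and divided by the TMM-adjusted library sizes, the ratio of 4LPS to NS was 0.646, with an exact counting interval of 0.418 to 0.986 at 95% that leaves out the spread between samples. The edgeR interval, which includes that spread, ran from -1.95 to 0.70 on the log2 scale.

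Kcnj8 and Abcc9 encode the pore and the regulatory subunit of the vascular ATP-sensitive potassium channel, which relaxes vessels when it opens. The genes are neighbours on the minus strand of chromosome 6 in GRCm39, Kcnj8 from 142510563 to 142517830 and Abcc9 from 142533588 to 142648571. Kcnj8 had 6, 10 and 9 counts in 4LPS samples, against 11, 6 and 11 in NS samples. The sums were 25 counts in 4LPS and 28 in NS, and after division by the TMM-adjusted library sizes the ratio was 0.966, with a counting interval from 0.540 to 1.72. The edgeR interval of Kcnj8, which includes the spread between samples, was wider, from -1.05 to 0.96 on the log2 scale. Differences within it were not detectable with these samples at this depth. Abcc9 had 16, 28 and 24 counts in 4LPS samples, against 32, 33 and 47 in NS samples. No 4LPS sample reached the lowest NS sample. Its log2 ratio was -0.60 ± 0.30 (edgeR adjusted p = 0.202), so the separation did not pass the test. Of the related pancreatic and neuronal channel genes, Kcnj11 was in the table and too low to be tested, at no more than 0.068 CPM in 4LPS samples and 0.252 CPM in NS samples.

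The 3 contractile genes of smooth muscle had the same lowest and highest samples. Acta2, smooth muscle α-actin, had 27.9, 49.8 and 57.8 CPM in 4LPS samples, against 65.8, 51.5 and 106 CPM in NS samples. Myh11, smooth muscle myosin heavy chain, had 38.2, 61.9 and 77.0 CPM in 4LPS samples, against 68.7, 61.4 and 128 CPM in NS samples. Tagln, the actin-binding protein transgelin (SM22α), had 12.8, 19.2 and 19.4 CPM in 4LPS samples, against 24.5, 20.4 and 43.9 CPM in NS samples. In each of the 3 genes, 4LPS replicate 1 was the lowest of all samples and NS replicate 3 was 1.81 to 1.97 times the mean of the other NS samples. The log2 fold changes were -0.72 for Acta2, -0.54 for Myh11 and -0.79 for Tagln (adjusted p = 0.156, 0.272 and 0.104 from edgeR). Without 4LPS replicate 3 the median over all 10 mural genes was -0.90 and 7 of them passed as lower at an unadjusted p under 0.05, with 12.3% of all genes doing so in that fit. Without 4LPS replicate 1 the median was -0.43 and none of the 10 passed unadjusted (14.3% of all genes). Without NS replicate 3 it was -0.38 and none of the 10 passed unadjusted (16.6% of all genes). In that fit Pdgfrb was at -0.60, Vtn at -0.56, Higd1b at -0.43, Abcc9 at -0.41, Tagln at -0.39, Acta2 at -0.37, Myh11 at -0.14, Notch3 at -0.03, Kcnj8 at 0.08 and Rgs5 at 0.11. With adjustment none of the 10 passed in these 3 fits.

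**Figure D2:**
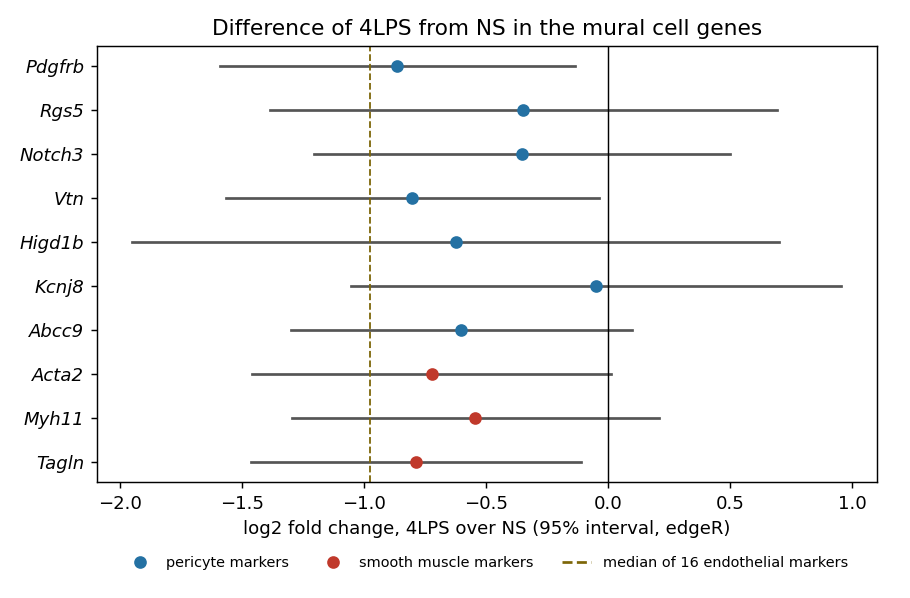
Log2 fold change of 4LPS over NS (x axis) for the 10 mural genes, with points for the edgeR estimates from 3 samples per group and bars for 95% intervals of each gene taken alone. All points lie below 0, the intervals of Pdgfrb, Vtn and Tagln exclude 0, and the dashed line is the median of 16 endothelial markers at -0.97.

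Levels of different genes were compared in FPKM, which are scaled by gene length. In 4LPS samples the order of the means was Acta2 (19.1 ± 6.42 FPKM), Rgs5 (17.3 ± 10.45), Tagln (12.7 ± 2.72), Myh11 (9.01 ± 2.91), Vtn (7.54 ± 3.46), Notch3 (2.45 ± 1.23), Pdgfrb (1.93 ± 0.68), Higd1b (1.90 ± 1.602), Kcnj8 (0.24 ± 0.06) and Abcc9 (0.21 ± 0.06) (SD, n = 3). In NS samples Acta2 was also first, at 33.6 ± 12.7 FPKM, followed by Rgs5 at 23.55 ± 11.3 FPKM and Tagln at 23.4 ± 9.86 FPKM. Vtn and Myh11 both averaged 14.04 FPKM in NS samples, and there Pdgfrb (3.75 FPKM) stood before Notch3 (3.35 FPKM) and Abcc9 (0.34 FPKM) before Kcnj8 (0.267 FPKM). The step from Vtn to Notch3 or Pdgfrb and the step from Higd1b to the channel genes exceeded the spread within both groups. Other neighbours in the order had overlapping ranges, among them Acta2, Rgs5 and Tagln, but the ranges do not compare genes within a sample. Within every sample Acta2 was above Tagln and Tagln above Myh11. Rgs5 was above Acta2 only in 4LPS replicate 3 (29.4 against 24.3 FPKM).

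The 10 genes shared a profile over the samples that also ran within the groups. 4LPS replicate 1 was the lowest sample for 8 of them, all but Kcnj8 and Higd1b, while it was the lowest for 14.8% of all genes tested. NS replicate 3 was the highest for 9, all but Kcnj8, and for 22.8% of all genes. Centred on each gene's own mean, the average of the 10 genes in log2 CPM was -0.78, -0.38 and 0.25 in 4LPS replicates 1 to 3 and 0.25, -0.15 and 0.81 in NS replicates 1 to 3. The distance of a gene from this profile is given as the root mean square difference over the 6 samples. It was 0.150 to 0.289 for 8 of the mural genes, 0.409 for Kcnj8 and 0.637 for Higd1b, the genes with the fewest counts. Among 10250 other genes with at least 5 CPM, those nearest to the profile were Cavin1 (0.058), Col4a1 (0.067), Adgra2 (0.075), Col4a2 (0.075), Aoc3 (0.088) and Mrvi1 (0.091). Cavin1 encodes a coat protein of caveolae, Col4a1 and Col4a2 encode the chains of basement membrane collagen IV, Adgra2 is a receptor of brain endothelial cells and pericytes, and Aoc3 is an amine oxidase of vessel walls. None of these 6 genes passed the test either (adjusted p = 0.120 to 0.312 from edgeR).

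The summed CPM of the 3 smooth muscle genes over that of the 7 pericyte genes was 1.105, 1.56 and 0.844 in 4LPS replicates 1 to 3, against 1.16, 1.30 and 1.24 in NS replicates 1 to 3. Its spread was 0.36 (SD) in 4LPS and 0.07 in NS (n = 3 each). Replicate 3 of 4LPS was rich in Rgs5 and Notch3 relative to the contractile genes, and replicate 2 was rich in the contractile genes. The means of 1.17 in 4LPS and 1.23 in NS differed by less than the spread within 4LPS.

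Endothelial markers were low and high in the same samples as the mural genes. The 16 endothelial markers summed to 206, 270.2 and 458 CPM in 4LPS replicates 1 to 3, against 546, 430 and 893 CPM in NS replicates 1 to 3. Of these, 14 were lowest in 4LPS replicate 1, and all 16 were highest in NS replicate 3. Their median log2 fold change was -0.97. At an adjusted p under 0.05, 5 of the 16 were lower, Mfsd2a, Kdr, Pecam1, Slco1a4 and Emcn, while 11 did not pass. Over all genes tested, 6.43% were lower. All 5 calls were lost without 4LPS replicate 2, and all but that of Mfsd2a without 4LPS replicate 1 and without NS replicate 1. Those of Pecam1, Slco1a4 and Emcn were also lost without NS replicate 3, and that of Emcn without 4LPS replicate 3. The endothelial median was -1.49 without 4LPS replicate 3 and -0.59 without NS replicate 3. Astrocyte markers summed to 219 to 251 CPM in 4LPS samples and 301 to 320.2 CPM in NS samples over 10 genes (6 lower, none higher), and did not set NS replicate 3 apart. Slc1a3 alone made up most of that sum, at 161 to 177 CPM in 4LPS samples and 173 to 183 CPM in NS samples (log2 ratio -0.05). The median log2 fold change of the 10 astrocyte genes was -0.87. Choroid plexus markers summed to 3399, 18.6 and 881 CPM in 4LPS replicates 1 to 3, against 10240, 8571 and 1075 CPM in NS replicates 1 to 3, an order unlike that of the mural genes. None of the 10 choroid plexus markers passed the test, and Aqp1, Kcnj13 and Prlr were at 0 in 4LPS replicate 2. Fibroblast markers, over 10 genes, summed to 92.1 to 165 CPM in 4LPS samples and 105 to 365 CPM in NS samples. Of 8 tested, Col6a3 was higher and Col1a2 lower. Col1a2 was at 9.15 to 9.99 CPM in 4LPS samples and 11.7 to 16.1 CPM in NS samples (log2 ratio -0.54, adjusted p = 0.0323 from edgeR). Lum, the lowest of the list, was at no more than 0.475 CPM in 4LPS and 0.558 CPM in NS samples. Without Igf2, which was at 4.49 to 91.8 CPM in 4LPS samples and 33.0 to 288 CPM in NS samples, the fibroblast sum was 73.5 to 87.6 CPM in 4LPS samples and 67.6 to 77.0 CPM in NS samples. Most of that remainder was Col6a3, at 55.0 to 66.8 CPM in 4LPS samples and 43.3 to 48.8 CPM in NS samples (log2 ratio 0.36, adjusted p = 0.0294 from edgeR). Over the 8 fibroblast genes tested the median log2 fold change was -0.18, with 6 below 0. Oligodendrocyte lineage markers had a median log2 fold change of -0.60, near the mural one, with all 10 below 0 and only Cspg5 passing the test. They summed to 317, 411 and 351 CPM in 4LPS replicates 1 to 3, against 401.5, 381 and 611 CPM in NS replicates 1 to 3, so that their lowest and highest samples were those of the mural genes. Neuron markers had a median of -0.57 over 7 genes tested, of which 5 were below 0 and none passed, and summed to 12.1 to 13.7 CPM in 4LPS samples and 15.1 to 18.0 CPM in NS samples. The part of these other cells in the mural values was not tested.

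**Figure D3:**
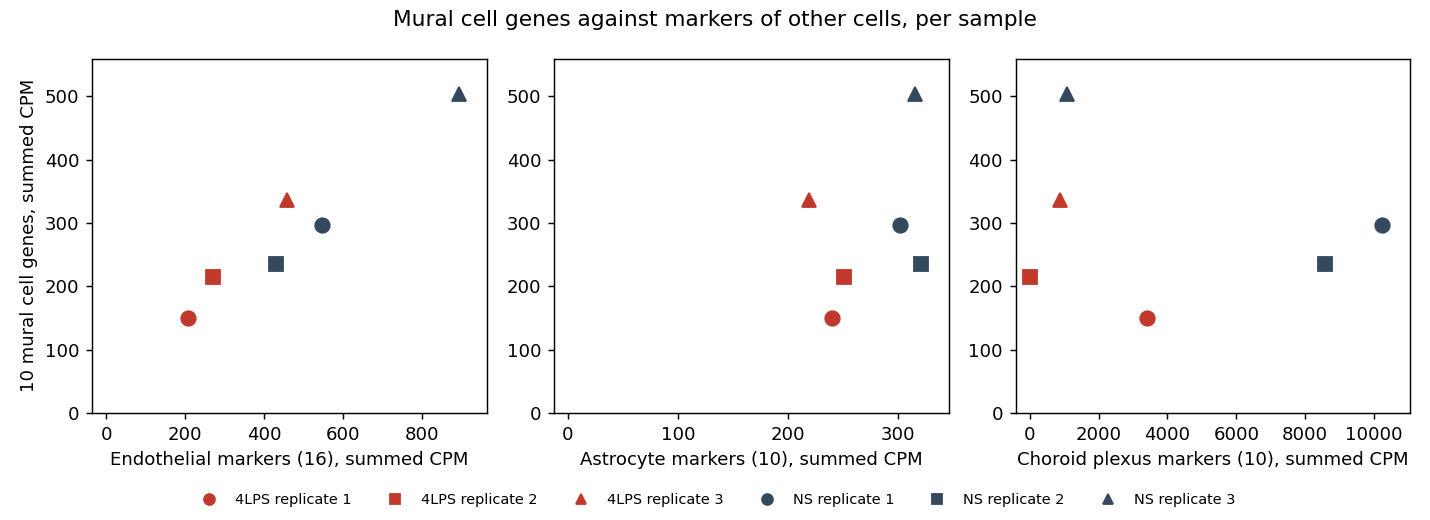
Summed CPM of the 10 mural genes (y axis) against summed CPM of endothelial, astrocyte and choroid plexus markers (x axes, linear) in each of the 6 samples, with colors for groups and symbols for replicates. The samples follow the endothelial sum in each group, the 4LPS samples lie to the left of NS samples of similar mural level, and the choroid plexus sum orders the samples differently.

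Set against the endothelial markers, the mural sum spread less within each group and was higher in every 4LPS sample than in every NS sample. Per CPM of endothelial markers, the mural sum was 0.73, 0.80 and 0.74 CPM in 4LPS replicates 1 to 3, against 0.54, 0.55 and 0.56 CPM in NS replicates 1 to 3. On this scale NS replicate 3 lay within 0.03 of the other NS samples. With every gene given equal weight, the mean log2 CPM of the mural genes minus that of the endothelial markers was -0.37, -0.36 and -0.56 in 4LPS samples, against -0.78, -0.86 and -0.96 in NS samples. Rgs5, Notch3, Myh11, Acta2 and Kcnj8 were higher per endothelial CPM in every 4LPS sample than in every NS sample (5 of 10), and the same held for 34.4% of all genes tested. Notch3 had 6.07, 5.71 and 6.86 CPM per 100 CPM of endothelial markers in 4LPS samples, against 4.14, 4.14 and 3.96 in NS samples. Pdgfrb had 3.34, 3.55 and 3.11 in 4LPS samples, against 3.48, 2.82 and 2.77 in NS samples, and Vtn 3.08, 4.08 and 3.69 in 4LPS samples, against 3.19, 3.79 and 2.91 in NS samples. Both overlapped between the groups.

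The same comparison was made across all genes with the log2 endothelial sum as a covariate in edgeR, a setting chosen after seeing the data. In this fit 2 of the 10 mural genes were higher in 4LPS, Rgs5 by 0.92 and Notch3 by 0.68 on the log2 scale (edgeR adjusted p = 0.0139 and 0.0248), and 5.96% of all genes were called higher. Pdgfrb, Vtn and Tagln were near 0, at 0.02, 0.06 and 0.03. Myh11 and Acta2 were at 0.41 and 0.20 (adjusted p = 0.182 and 0.591). The endothelial sum was itself lower in 4LPS on average (311 CPM, against 623 CPM in NS), so the covariate and the treatment cannot be told apart in full.

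**Figure D4:**
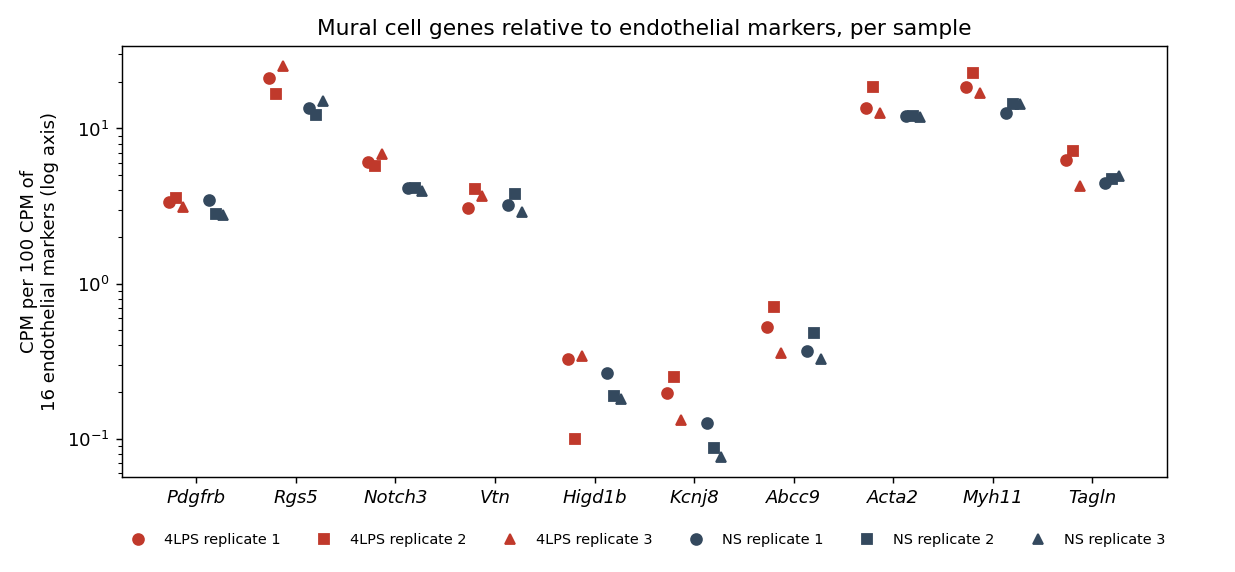
CPM of each mural gene per 100 CPM of 16 endothelial markers (y axis, log) in each of the 6 samples, with colors for groups and symbols for replicates. Rgs5, Notch3, Myh11, Acta2 and Kcnj8 lie higher in all 4LPS samples, while Pdgfrb, Vtn, Higd1b, Abcc9 and Tagln overlap between the groups.

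Further pericyte and smooth muscle genes were read from lists chosen by knowledge of the cell types, with earlier results of these data known. Which cells of the samples made these transcripts was not tested. Their counts stand beside shares of 6.43% lower and 9.95% higher over all genes tested. Of 18 other pericyte genes tested, 3 were lower, none was higher and 15 did not pass, with a median log2 fold change of -0.74 (-0.40 without NS replicate 3). The 3 were Cald1, which encodes the actin regulator caldesmon, Zic1, a transcription factor, and Slc6a20a, an amino acid transporter. Cald1 was at 18.7, 21.4 and 26.0 CPM in 4LPS samples, against 40.0, 27.0 and 50.5 CPM in NS samples (log2 ratio -0.83, edgeR adjusted p = 0.0405). Zic1 and Slc6a20a were highest in NS replicates 1 and 2 and not in NS replicate 3, unlike the mural profile. Slc6a20a was at 3.035, 0.952 and 1.63 CPM in 4LPS samples, against 9.44, 8.05 and 3.16 CPM in NS samples. Of 24 other smooth muscle genes tested, Smtn and Sorbs2 were lower, none was higher and 22 did not pass, with a median of -0.56 (-0.13 without NS replicate 3). Below 0 were 21 of the 24, and 52.7% of all genes tested. Cnn2, Rbpms and Srf were above 0, at 0.38, 0.37 and 0.05 on the log2 scale. Flna, at 295 to 317 CPM in 4LPS samples and 286 to 396 CPM in NS samples, was at -0.09. Smtn encodes smoothelin, a protein of contractile smooth muscle, and Sorbs2 encodes an adaptor of the actin cytoskeleton. Their log2 fold changes were -0.60 and -1.01 (adjusted p = 0.0435 and 0.0281 from edgeR). Smtn did not pass with any of the 6 samples left out. Cald1 passed only without NS replicate 2, and Slc6a20a only without 4LPS replicate 1 or NS replicate 3. Sorbs2 did not pass without 4LPS replicates 1 or 2 or NS replicate 1, and Zic1 did not pass without 4LPS replicates 2 or 3.

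The ligands and targets around the mural receptors gave few calls among PDGF genes and a split among Notch genes. Over all genes tested, 6.43% were lower and 9.95% higher. Which cells of the samples made the transcripts of these lists was not tested. Of 13 PDGF pathway genes tested, Pdgfc and Pdgfd were lower, none was higher and 11 did not pass. Pdgfb, the ligand that acts on Pdgfrb, was abundant and at similar levels, 301, 277 and 329 CPM in 4LPS samples against 326, 312 and 347 CPM in NS samples (log2 ratio -0.12, adjusted p = 0.273 from edgeR). In cells sorted on CD11b the Pdgfb level cannot be read as that of the endothelial ligand. Pdgfd, another ligand of Pdgfrb, was at 2.90, 1.70 and 4.001 CPM in 4LPS samples, against 8.62, 6.16 and 5.39 CPM in NS samples (log2 ratio -1.23, adjusted p = 0.0380 from edgeR). Pdgfd did not pass without 4LPS replicates 1 or 2 or NS replicates 1 or 2, nor Pdgfc without 4LPS replicates 2 or 3 or NS replicates 1 or 2. Of 18 Notch pathway genes tested, 4 were lower, 4 were higher and 10 did not pass.

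The Notch genes that fell were the receptor Notch4 and the Notch target genes Hes1, Hey2 and Nrarp. Nrarp, which is induced by Notch and restrains it, was at 4.32, 4.89 and 6.71 CPM in 4LPS samples, against 13.9, 11.1 and 14.3 CPM in NS samples (log2 ratio -1.30, standard error 0.19, adjusted p = 0.00378 from edgeR). Notch4 was at 12.6, 12.6 and 17.3 CPM in 4LPS samples, against 28.7, 27.9 and 30.1 CPM in NS samples (log2 ratio -1.03, adjusted p = 0.00222 from edgeR). In these 2 genes NS replicate 3 was close to the other NS samples, unlike in the mural genes. It was also unlike the endothelial sum, at 546, 430 and 893 CPM in NS replicates 1 to 3. Heyl, a Notch target of smooth muscle cells, was at 2.16, 3.13 and 3.87 CPM in 4LPS samples, against 2.96, 2.58 and 4.83 CPM in NS samples, and overlapped. Among the genes that rose were Rbpj, the DNA-binding partner of Notch, and Adam10 and Adam17, which cleave Notch receptors and other proteins. Rbpj was at 190, 170 and 180 CPM in 4LPS samples, against 124, 125 and 140.0 CPM in NS samples (log2 ratio 0.47, adjusted p = 0.00305 from edgeR). Adam17 was higher by 0.40 on the log2 scale (edgeR adjusted p = 7.58e-04). Notch4, Hes1, Nrarp, Rbpj and Adam17 passed with each sample left out. Hey2 did not pass without 4LPS replicate 2 or NS replicate 1, and Adam10 passed only without NS replicate 3 among these fits, and did not pass without a composition factor or on log2 FPKM.

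Of the receptor chains for vitronectin and related genes, Itgav was lower and Itgb5 higher, and 5 of 7 tested did not pass. Over all genes tested, 6.43% were lower and 9.95% higher. Which cells made these transcripts was not tested. Itgav, the αV chain, was at 178, 183 and 176 CPM in 4LPS samples, against 219, 235 and 248 CPM in NS samples (log2 ratio -0.39, adjusted p = 0.00333 from edgeR). Itgb5, the β5 chain, averaged 3276 CPM in 4LPS samples and 2411 CPM in NS samples (log2 ratio 0.44, adjusted p = 0.00476 from edgeR). Both passed with each sample left out. Among 6 tested relatives of Rgs5 in the R4 family, Rgs1 was higher and 5 did not pass. Rgs1, which is made by leukocytes, averaged 36.4 CPM in 4LPS samples and 22.9 CPM in NS samples (log2 ratio 0.67, adjusted p = 0.0192 from edgeR). It did not pass without 4LPS replicates 2 or 3 or NS replicates 1 or 2.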

How the data were processed

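RNA-seq was performed on 3 samples of CD11b+ cells from 4LPS mice and 3 from NS mice. Groups and replicate numbers came from the sample labels. Each sample pooled 2 mice. According to the methods and the submitters' processing notes, the authors mapped filtered paired reads with HISAT2 2.0.4 and Bowtie2 2.2.5 (the methods name mm39, while the notes list mm10 as well), estimated expression with RSEM 1.2.8 and tested it with DESeq2 1.16.1. Gene annotation and strand use are not given in the sources used here. Expected counts per gene, without normalization, were deposited by the authors, and 2.77% of them were not whole. They deposited FPKM values, scaled for gene length and library total. They also deposited TPM values and a normalized signal (the count divided by a size factor), which were read only to identify their units. The deposited group means were not used.

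Expected counts were rounded and fitted in R 4.3.3 with edgeR 4.0.16 (TMM factors, filterByExpr, quasi-likelihood test, Benjamini-Hochberg adjustment over 13151 genes). Total counts were 15158342 to 15746606 per sample. The log2 fold change is 4LPS over NS, its standard error is its size over the square root of the F statistic, and 95% intervals use the t distribution of the fit. Exact permutation of 3 against 3 samples cannot go below p = 0.1, so p-values came from fits across all genes. The fit was tested on simulated data. Counting intervals are exact binomial ones and cover counting error only. Alternatives were RLE, upper-quartile and no composition factors, no filter, a floor of 50 counts in 3 samples, DESeq2 1.42.0, limma 3.58.1 (voom, and log2(FPKM + 1) or log2(FPKM + 0.1) where 3 samples reached 1 FPKM, and log2(FPKM + 1) for every gene), a replicate block and each sample left out. A fit without replicate 3 of both groups and a fit with the endothelial covariate were added after seeing the data.

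The 10 members and all lists were chosen with earlier results of these data known. Named genes are the members, up to 4 called genes with the smallest p from each partner list, and the 6 genes nearest to the mean member profile. In the Notch list this names Adam17, Notch4, Rbpj and Nrarp. Hes1, Hey2, Adam10 and further listed genes were named after their values were seen. 1 called gene of the Notch list is not reported here. Start regions are those of RefSeq on GRCm38.p6, and gene positions those of GENCODE on GRCm39, matched by symbol for all 10.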

Additional observations from a re-analysis of the deposited data

How the results depend on the processing

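With edgeR none of the 10 mural genes passed in either direction under RLE, upper-quartile or no composition factors, without a count filter, or with any sample left out, nor with limma-voom or limma on unfiltered FPKM. None passed among the 7 left by the floor of 50 counts or the 8 left by the FPKM filter. DESeq2 called 3 of them lower. The same number, 3, was lower with the replicate number as a block (Pdgfrb, Vtn and Tagln, adjusted p = 0.0289, 0.0211 and 0.0476), where 1081 genes or 8.22% of all were lower, but same-numbered samples did not deviate together (correlations of 0.473, -0.262 and 0.066 for numbers 1 to 3), so the block is not read as pairing. With the endothelial covariate 2 mural genes were higher. That fit turned Pdgfrb, Rgs5, Notch3, Vtn, Higd1b, Kcnj8, Acta2, Myh11 and Tagln above 0 (0.0242, 0.92, 0.68, 0.0562, 0.39, 0.44, 0.20, 0.41 and 0.0329). Kcnj8 was at -0.28 to 0.15 with each sample left out, and at 0.0215 without replicate 3 of both groups. Rgs5 was at -0.96 to 0.11 with each sample left out.

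Over all genes, 845 were lower and 1308 higher. These counts were 1711 and 906 without a composition factor, which shifted all genes by -0.10, and 513 and 784 with the endothelial covariate. On log2(FPKM + 1) they were 1369 and 745 with the filter and 1341 and 777 without, and on log2(FPKM + 0.1) they were 1247 and 689. Leaving out each sample gave 363 to 1215 lower and 781 to 1629 higher genes. The cause of these shifts was not tested. Kcnj8, Higd1b and Abcc9, with 25, 37 and 68 counts in 4LPS and 28, 62 and 112 in NS, limit what can be said of them.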
